A study of Mus musculus with 6 samples.

Results

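Enzymes that add or remove marks on histones and DNA were described in 4T1 cells, an aggressive tumour line derived from a BALB/c mammary carcinoma, grown inside collagen I gels. The set was taken by symbol from the count table: the lysine demethylases of the Kdm series, the Kmt2 and Kmt5 methyltransferases, the numbered histone deacetylases, the 7 sirtuins, the Kat acetyltransferases with Ep300 and Crebbp, the DNA methyltransferases, the Tet dioxygenases, the core of Polycomb repressive complex 2, and the methyltransferases Ehmt1, Ehmt2, Setd2, Nsd1, Nsd2 and Dot1l. This took 74 of the 31017 rows, among them 3 antisense transcripts whose symbols match (Dnmt3aos, Dnmt3bos and Kdm6bos). The tested cells, called FGFR2 KO after their label, had been nucleofected with Cas9 and guides named for FGFR2, which encodes a fibroblast growth factor receptor of the tyrosine kinase class (3 libraries, replicates 1 to 3). The control cells had been nucleofected with Cas9 and control guides (3 libraries, replicates 1 to 3). Both groups were grown in collagen I, freed with collagenase and sequenced as poly(A) RNA. Per the labels' protocols more than 1 collagen concentration was in use; which one a library came from, how long the gels were kept, and whether the KO cells were a pool or a clone are not stated there.

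DNA in the nucleus is wound around histones, whose tails carry acetyl and methyl groups. Acetyltransferases and deacetylases set the acetylation that goes with open, active chromatin. Methyltransferases and demethylases work residue by residue: methylation of lysine 4 of histone H3 (H3K4) marks promoters and enhancers, H3K36 and H3K79 methylation marks transcribed gene bodies, and H3K9, H3K27 and H4K20 methylation is mostly linked to repression. DNA methyltransferases place methyl groups on cytosine and the Tet enzymes oxidise them.

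The libraries held 15531790 to 20447719 counts. Replicates of a group lay close together, with a biological coefficient of variation of 4.00% over the 12158 genes tested. Whether replicates were separate cultures is not stated, so p-values reflect library-to-library spread that may be technical in part. Fgfr2 itself measured 101, 81.2 and 95.2 CPM (counts scaled to library size) in KO libraries, against 96.9, 95.9 and 106 CPM in control libraries. The groups overlapped for Fgfr2 (log2 fold change -0.11, edgeR's quasi-likelihood test, adjusted p = 0.113), and a count over the whole gene does not show whether guides cut it, so the KO label could not be checked. Of the 9 epithelial markers none was at 0, and their sum was 3630 to 3713 CPM in KO libraries and 4447 to 4564 CPM in control libraries. The 9 leukocyte markers summed to 6.20 to 8.69 CPM in KO and 14.3 to 16.7 CPM in control libraries, with Cd3e and Adgre1 at 0 and 7 of the 9 under 1 CPM; most of the sum was Cd68 (5.08 to 7.01 CPM in KO and 12.6 to 15.4 CPM in control libraries). The 7 fibroblast markers summed to 39.7 to 45.4 CPM in KO and 36.3 to 38.2 CPM in control libraries. Lum and Thy1 were at 0 and 6 of the 7 were under 1 CPM on average. Most of the sum was Pdgfra (36.9 to 43.1 CPM in KO and 35.6 to 37.8 CPM in control libraries), which did not pass. All 5 endothelial markers were under 1 CPM. Epithelial and leukocyte sums were thus lower in KO libraries, with the epithelial sum mostly Krt8 and Krt18. Of the epithelial markers 6 fell, while Cdh1 (log2 fold change 0.25) and Esrp1 (0.13) rose and Cldn7 (0.03) did not pass. The part of these markers in the results below was not tested. In bulk RNA, fewer cells of a type and less RNA per cell cannot be told apart.

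Of the 74 rows, 66 passed the filter on low counts, all of them enzymes, and each of these had at least 3.06 CPM in every library. A gene was said to have changed at a Benjamini-Hochberg adjusted p below 0.05 in edgeR's quasi-likelihood test, adjusted over all tested genes. By that rule 18 enzymes rose in FGFR2 KO cells, 22 fell and 26 did not pass. That is 60.6% changed, read against 54.6% of all tested genes; the enzymes that rose were 27.3% against a background of 27.1%, and those that fell 33.3% against 27.5%. The KO libraries all lay above the control libraries for 18 enzymes (27.3%, background 29.5%) and all below for 25 (37.9%, background 30.0%). The shares that changed and rose were therefore near those of the transcriptome, and the shares that fell or lay below were some points higher, a difference that was not tested.

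The changes were small. Log2 fold changes ran from -0.70 to 0.46, with a median absolute value of 0.17 for the enzymes and 0.21 for all tested genes. Their signed medians were -0.05 for the enzymes and -0.01 for all tested genes. No enzyme changed by 2-fold or more (0 of 66, background 6.75%). When the test asked for more than a 1.5-fold change, 0 enzymes passed after adjustment, and at an unadjusted p below 0.05 only Kdm7a (glmTreat in edgeR, unadjusted p = 0.0303) and Kmt5c (0.0400) did. Of all 12158 tested genes, 907 passed that test after adjustment and 1281 at the unadjusted threshold. With a mean of at least 5 CPM and an absolute log2 fold change of at least 0.4, 9 enzymes changed (13.6%, background 16.4%): Kdm7a, Kmt5c, Sirt5, Hdac11, Hdac6, Ezh1 and Kdm4b fell, while Kdm1b and Hdac10 rose. All 9 passed the test in each of the 6 fits that left out 1 library. Those fits share libraries with the fit that chose the 9, so they show only that no call rested on 1 library.

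**Figure D1:**
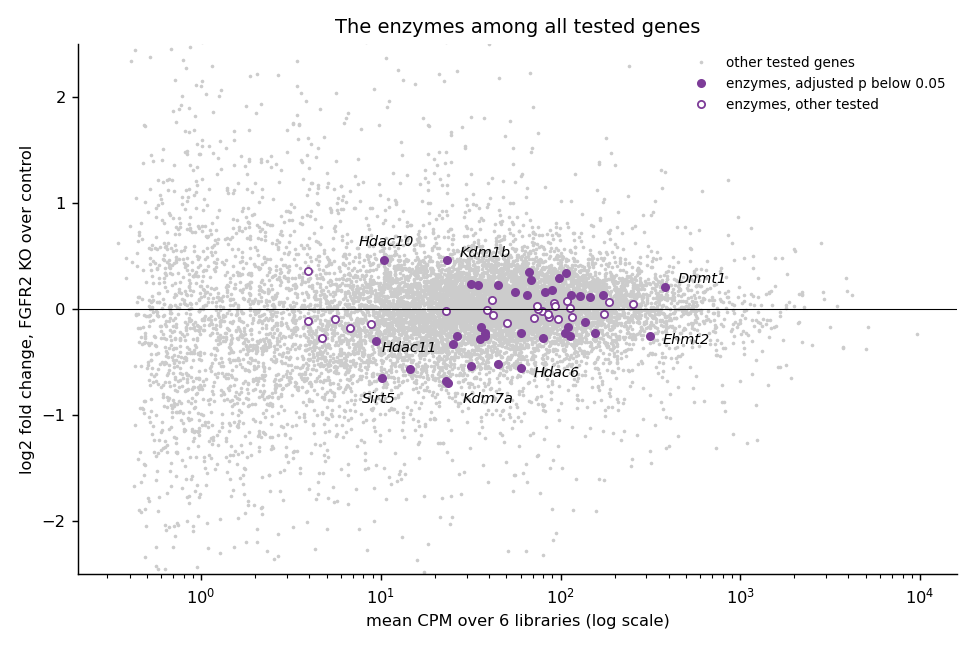
Log2 fold change of FGFR2 KO over control (vertical) against the mean CPM over the 6 libraries (horizontal, log scale) for all tested genes in grey and the tested enzymes in purple, filled where the adjusted p was below 0.05. The enzymes lie between -0.70 and 0.46, inside the cloud of other genes, of which 140 lie beyond the plotted range.

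**Figure D2:**
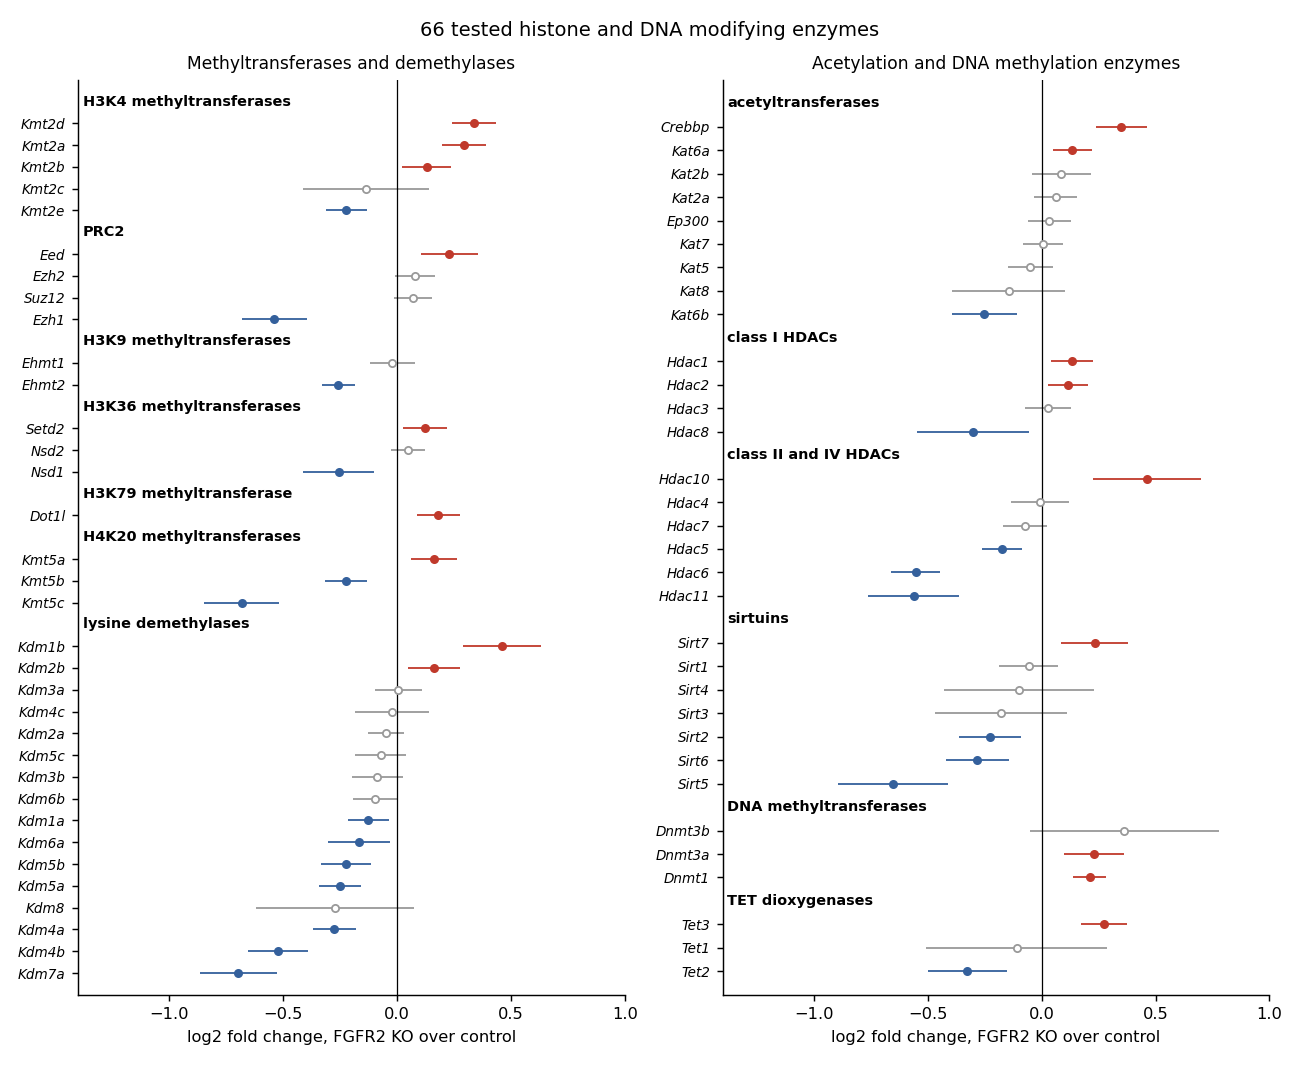
Log2 fold change of FGFR2 KO over control for the 66 tested enzymes by role, with 95% intervals. Red and blue filled points rose and fell at an adjusted p below 0.05 (18 and 22 enzymes), and open grey points are the 26 that did not pass.

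Promoter sequence was available for 58 of the 74 rows in RefSeq (GRCm38.p6, windows of 300 bases, 250 before and 50 after an annotated start). The 4 windows printed belong to the enzymes with the 2 largest falls (Kdm7a and Kmt5c), the smallest adjusted p (Hdac6) and the highest CPM (Dnmt1), and each holds a searched motif, shown in capitals. These are ACGTG, the core of the element bound by hypoxia-inducible factors, and 4 E2F-type words, TTTGGCGC, TTTCCCGC, TTTCGCGC and TTTGCCGC, a class of site common in genes of DNA replication; either strand was searched, so a match can read as the reverse complement. Kdm7a lies at chr6:39206724-39207023 on the minus strand, Hdac6 at chrX:7947840-7948139 on the minus strand, Kmt5c at chr7:4739877-4740176 on the plus strand, and the Dnmt1 window, 1 of 3 for that gene, at chr9:20952574-20952873 on the minus strand.
Kdm7a: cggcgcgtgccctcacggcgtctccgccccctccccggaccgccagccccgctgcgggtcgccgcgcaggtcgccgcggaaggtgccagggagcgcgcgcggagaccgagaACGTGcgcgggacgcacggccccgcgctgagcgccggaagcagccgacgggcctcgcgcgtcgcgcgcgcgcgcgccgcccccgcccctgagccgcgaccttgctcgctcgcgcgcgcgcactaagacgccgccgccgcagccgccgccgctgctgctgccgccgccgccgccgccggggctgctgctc
Hdac6: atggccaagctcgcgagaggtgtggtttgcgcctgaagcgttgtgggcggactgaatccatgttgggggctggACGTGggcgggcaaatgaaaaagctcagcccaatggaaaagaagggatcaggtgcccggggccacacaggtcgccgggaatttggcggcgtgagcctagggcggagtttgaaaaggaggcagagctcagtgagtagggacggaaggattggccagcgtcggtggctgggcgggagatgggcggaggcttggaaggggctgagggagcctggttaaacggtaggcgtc
Kmt5c: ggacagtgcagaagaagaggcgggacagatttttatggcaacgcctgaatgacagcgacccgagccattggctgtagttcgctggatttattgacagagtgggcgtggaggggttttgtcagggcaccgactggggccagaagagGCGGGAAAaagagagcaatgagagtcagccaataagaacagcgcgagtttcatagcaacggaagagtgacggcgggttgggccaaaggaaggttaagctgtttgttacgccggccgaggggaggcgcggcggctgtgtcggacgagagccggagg
Dnmt1: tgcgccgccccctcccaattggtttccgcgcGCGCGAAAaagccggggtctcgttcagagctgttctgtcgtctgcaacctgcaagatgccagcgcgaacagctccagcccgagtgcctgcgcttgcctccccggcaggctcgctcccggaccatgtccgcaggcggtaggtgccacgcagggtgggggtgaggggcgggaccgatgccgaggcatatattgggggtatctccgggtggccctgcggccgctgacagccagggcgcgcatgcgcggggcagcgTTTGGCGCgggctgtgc
The Kdm7a and Hdac6 windows each hold 1 ACGTG, the Kmt5c window holds 1 E2F-type word and the Dnmt1 window holds 2, while the other 2 Dnmt1 windows hold 0 of either motif. Of the other enzymes with larger changes, the Ezh1, Hdac11 and Kdm1b windows hold 0 of either motif and the Sirt5 window holds 1 ACGTG. Kdm4b and Hdac10 had no window and could not be searched. Counted by gene, an ACGTG was found for 10 of 18 enzymes that fell, 2 of 14 that rose and 8 of 21 that did not pass. Among all tested genes with a window the share was 29.7%, with 29.5% of genes that fell and 30.0% of genes that rose, so over the transcriptome the motif did not sort with direction. E2F-type words were found for 1 of 18 enzymes that fell (Kmt5c), 1 of 14 that rose (Dnmt1) and 4 of 21 that did not pass. Among all tested genes with a window the share was 4.79%, with 3.80% of genes that fell and 5.55% of genes that rose. These are matches of letters in a window and were not tested as binding sites.

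Of the 16 lysine demethylases tested, the largest role, 7 fell, 2 rose and 7 did not pass, where 27.5% of all tested genes fell and 27.1% rose. Their median log2 fold change was -0.11. Kdm7a, which removes methyl groups from H3K9 and H3K27, had 16.2, 19.8 and 18.2 CPM in KO libraries, against 31.3, 27.8 and 28.9 CPM in control libraries. Every KO library lay far below every control library, with a log2 fold change of -0.70 ± 0.08 (SE, n = 3 each, edgeR adjusted p = 6.78e-09). Kdm7a is at chr6:39136623-39206789 on the minus strand (mm10, GENCODE M21), and 2.85% of its exon bases overlap the antisense gene 4930599N23Rik. Kdm4b, an H3K9 and H3K36 demethylase known as a target of hypoxia-inducible factors, had 36.7, 35.7 and 37.8 CPM in KO libraries, against 47.8, 58.6 and 51.6 CPM in control libraries. The groups did not overlap, the control libraries were the more scattered, and the log2 fold change was -0.52 ± 0.07 (SE, n = 3 each, edgeR adjusted p = 1.78e-08). Its paralog Kdm4a fell less, with a mean of 72.4 ± 0.41 CPM in KO and 87.6 ± 1.82 CPM in control libraries (SD, n = 3 each, log2 fold change -0.28), and Kdm4c measured -0.02 and did not pass. Kdm3a, an H3K9 demethylase that is likewise a known hypoxia target, did not pass either, with means of 74.7 ± 3.16 CPM in KO and 74.6 ± 3.53 CPM in control libraries.

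The demethylase that rose most was Kdm1b, a flavin-dependent H3K4 demethylase that in the mouse is needed for DNA methylation imprints in oocytes. It had 29.7, 25.7 and 25.8 CPM in KO libraries, against 17.9, 20.2 and 20.9 CPM in control libraries. All KO libraries were above all control libraries, and the log2 fold change was 0.46 ± 0.08 (SE, n = 3 each, edgeR adjusted p = 1.66e-05). Kdm1b lies at chr13:47043499-47085279 on the plus strand (mm10), and 9.19% of its exon bases overlap Dek on the other strand; since the strand setting of the counting is not given, reads over that stretch are uncertain. Its paralog Kdm1a, the more abundant H3K4 demethylase of corepressor complexes, went the other way with a log2 fold change of -0.13 (edgeR adjusted p = 0.0159), but missed the threshold without KO replicate 3 (adjusted p = 0.135) or control replicate 2 (0.0700). Of the other H3K4 demethylases Kdm5a fell by 0.25 and Kdm5b by 0.22 on the log2 scale, and Kdm5c measured -0.07 and did not pass. Kdm2a, an H3K36 demethylase of CpG islands and the demethylase with the highest CPM, had 174, 171 and 171 CPM in KO libraries, against 176, 182 and 176 CPM in control libraries. The KO libraries lay just below, and the difference did not pass (log2 fold change -0.05, adjusted p = 0.294). Its paralog Kdm2b rose (0.16) and Kdm6a, an H3K27 demethylase, fell (-0.17), both with calls that were lost when single libraries were left out. Without control replicate 2 the adjusted p was 0.155 for Kdm2b and 0.282 for Kdm6a, and Kdm6a also missed it without KO replicate 2 (0.0731), KO replicate 3 (0.124) or control replicate 3 (0.0509). Kdm6b (-0.10) and Kdm3b (-0.09) did not pass, but passed without KO replicate 3 (Kdm6b, 0.0138) and without control replicate 1 (Kdm3b, 0.0474). Kdm8, at 3.75 to 5.37 CPM, measured -0.27 with a wide 95% interval of -0.62 to 0.07.

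**Figure D3:**
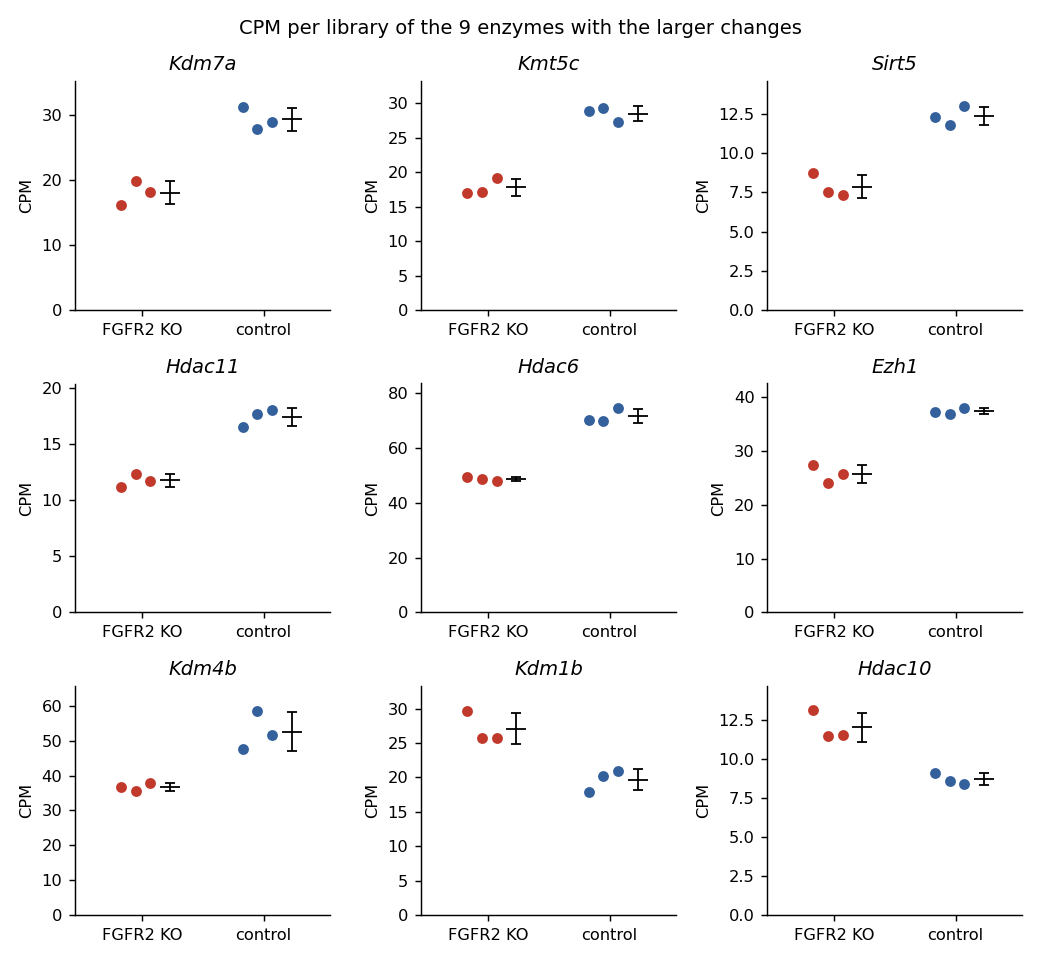
CPM in each library (vertical, from 0) of the 9 enzymes that changed with an absolute log2 fold change of at least 0.4 and a mean of at least 5 CPM, FGFR2 KO in red and control in blue, with the mean and SD of 3 libraries in black. In all 9 panels the KO libraries lie on one side of the control libraries, below in the 7 that fell and above for Kdm1b and Hdac10. The 9 were chosen by their change in these same libraries, so the separation is no separate support. Of all tested genes 29.5% lay above and 30.0% below in this way.

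Among the H4K20 methyltransferases all 3 changed, in both directions, where 54.6% of all tested genes changed. Kmt5c, which makes H4K20 trimethylation at heterochromatin, had 17.0, 17.2 and 19.2 CPM in KO libraries, against 28.8, 29.3 and 27.3 CPM in control libraries. No KO library came near the control libraries (log2 fold change -0.68 ± 0.08, SE, n = 3 each, edgeR adjusted p = 5.43e-09). The gene lies at chr7:4740115-4747514 on the plus strand (mm10). Kmt5b, which makes H4K20 dimethylation and has the highest CPM of the 3, had 95.6, 98.6 and 97.4 CPM in KO libraries, against 109, 115 and 117 CPM in control libraries. It too lay below in every KO library, by less (log2 fold change -0.22, adjusted p = 5.94e-05). Kmt5a, the monomethyltransferase whose mark is placed around mitosis, rose by 0.16 (adjusted p = 0.00552).

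Of the Polycomb repressive complex 2 core, which methylates H3K27, Ezh1 fell and the other catalytic subunit, Ezh2, did not pass. Ezh1, the subunit known to persist in non-dividing cells, had 27.5, 24.0 and 25.8 CPM in KO libraries, against 37.3, 36.9 and 38.0 CPM in control libraries. The groups were well apart (log2 fold change -0.54 ± 0.07, SE, n = 3 each, edgeR adjusted p = 3.55e-08). Ezh2, the subunit of dividing cells, averaged 112 ± 2.15 CPM in KO and 106 ± 2.80 CPM in control libraries (log2 fold change 0.08, SD, n = 3 each, edgeR adjusted p = 0.122). Eed, which binds trimethylated H3K27, rose by 0.23 (adjusted p = 0.00203). Suz12, the scaffold and the subunit with the highest CPM, had 193, 199 and 178 CPM in KO libraries, against 182, 175 and 185 CPM in control libraries, with groups that overlapped. It measured 0.07 and did not pass (adjusted p = 0.154), though it did without KO replicate 3 (0.12, adjusted p = 0.0196).

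Of the 5 H3K4 methyltransferases Kmt2d (0.34), Kmt2a (0.29) and Kmt2b (0.13) rose, Kmt2e fell and Kmt2c did not pass. Over all tested genes 27.1% rose and 27.5% fell. Kmt2d, which marks enhancers, averaged 120 ± 7.51 CPM in KO and 94.8 ± 3.77 CPM in control libraries, and Kmt2a, a regulator of Hox genes, averaged 108 ± 3.36 CPM in KO and 88.3 ± 5.01 CPM in control libraries (SD, n = 3 each). The Kmt2b call missed the threshold under upper quartile scaling (adjusted p = 0.0854), under DESeq2 (0.0600) and without KO replicate 2 (adjusted p = 0.0531), KO replicate 3 (0.0834) or control replicate 2 (0.253). Kmt2e, a family member with little methyltransferase activity of its own and the highest CPM, had 152, 133 and 144 CPM in KO libraries, against 167, 164 and 168 CPM in control libraries. It lay below in all KO libraries (log2 fold change -0.22, edgeR adjusted p = 4.83e-05). Of the Kmt2e exon bases 9.31% overlap Srpk2 on the other strand, so reads over that stretch are uncertain. Kmt2c, the enhancer methyltransferase closest to Kmt2d, stood out by its scatter within groups, chosen for mention after its values were seen: it had 63.3, 40.8 and 40.8 CPM in KO libraries, against 50.1, 72.5 and 34.1 CPM in control libraries. Its within-group SD of 0.46 on the log2 scale ranked 6 among 10063 genes with at least 5 CPM, while the median enzyme had 0.07. The log2 fold change of Kmt2c was -0.14 (adjusted p = 0.413), and it passed without KO replicate 1 (-0.37, adjusted p = 0.00588) or without control replicate 3 (-0.35, adjusted p = 0.0171).

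For H3K9, Ehmt2, the main H3K9 dimethyltransferase, had 292, 281 and 291 CPM in KO libraries, against 341, 335 and 356 CPM in control libraries. The groups were apart with little scatter (log2 fold change -0.26 ± 0.04, SE, n = 3 each, edgeR adjusted p = 1.74e-07), while its partner Ehmt1 measured -0.02 and did not pass. For H3K36, Setd2, which makes the trimethyl mark, rose (0.12) and Nsd1, which makes the dimethyl mark, fell (-0.26, adjusted p = 0.00527). The Setd2 call was lost without KO replicate 1 (adjusted p = 0.164), control replicate 1 (0.243) or control replicate 2 (0.0517). Nsd2, the H3K36 enzyme with the highest CPM, had 264, 253 and 254 CPM in KO libraries, against 252, 242 and 252 CPM in control libraries; the KO libraries were higher by a margin that did not pass (0.05, adjusted p = 0.265). Dot1l, the H3K79 methyltransferase, had 96.2, 92.5 and 96.5 CPM in KO libraries, against 84.6, 80.8 and 86.4 CPM in control libraries. It rose, with all KO libraries above (0.18, adjusted p = 0.00112).

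Of the 9 acetyltransferases tested, Crebbp and Kat6a rose, Kat6b fell and 6 did not pass, where 27.1% of all tested genes rose and 27.5% fell. Crebbp, a coactivator that acetylates H3K18 and H3K27, averaged 74.9 ± 5.82 CPM in KO and 58.7 ± 2.26 CPM in control libraries (log2 fold change 0.35, SD, n = 3 each, edgeR adjusted p = 1.65e-06). Its close relative Ep300 averaged 94.2 ± 2.51 CPM in KO and 92.1 ± 3.38 CPM in control libraries and did not pass (0.03). Kat6a, an H3K23 acetyltransferase and the one with the highest CPM, had 191, 170 and 182 CPM in KO libraries, against 169, 164 and 161 CPM in control libraries. The KO libraries were higher by a small step (0.13, adjusted p = 0.00698), and without KO replicate 1 the adjusted p was 0.0604. Kat6b, its paralog, fell (-0.25, adjusted p = 0.00249). Kat2a, Kat2b, Kat5, Kat7 and Kat8, catalytic subunits of the SAGA, NuA4, HBO1 and MSL complexes among others, lay between -0.15 and 0.09.

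Hdac6 gave the smallest adjusted p of all the enzymes. It is a mainly cytoplasmic class IIb deacetylase whose best known substrate is tubulin, and it had 49.5, 48.8 and 48.0 CPM in KO libraries, against 70.3, 69.9 and 74.6 CPM in control libraries. The KO libraries were nearly identical and all far below the control libraries (log2 fold change -0.55 ± 0.05, SE, n = 3 each, edgeR adjusted p = 3.3e-11). Hdac6 lies at chrX:7930120-7947889 on the minus strand (mm10). Hdac10, the other class IIb enzyme and a polyamine deacetylase, went the other way, with 13.1, 11.4 and 11.5 CPM in KO libraries, against 9.10, 8.62 and 8.39 CPM in control libraries. The groups did not overlap (0.46 ± 0.12, SE, n = 3 each, edgeR adjusted p = 0.000983). Hdac11, the class IV enzyme, a defatty-acylase, had 11.2, 12.4 and 11.7 CPM in KO libraries, against 16.5, 17.6 and 18.0 CPM in control libraries. It fell with no overlap (-0.56 ± 0.10, SE, n = 3 each, edgeR adjusted p = 8.79e-06), and 15.4% of its exon bases overlap Gm44002 on the other strand.

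In class IIa, whose members shuttle between nucleus and cytoplasm, Hdac5 fell by 0.17 on the log2 scale (adjusted p = 0.000832) and Hdac4 measured -0.01. Hdac7, the one with the highest CPM, had 109, 114 and 116 CPM in KO libraries, against 116, 112 and 129 CPM in control libraries, with overlapping groups and no pass (-0.07, adjusted p = 0.201). Of the nuclear class I enzymes Hdac1 (0.13) and Hdac2 rose, Hdac8 fell (-0.30) and Hdac3 measured 0.03. Hdac2, with the highest CPM of the class, had 152, 156 and 149 CPM in KO libraries, against 132, 150 and 141 CPM in control libraries, so the groups touched (0.12, adjusted p = 0.0255). All 3 class I calls were lost in some of the fits that left out 1 library. Hdac1 missed the threshold without KO replicate 1 (adjusted p = 0.0918), control replicate 1 (0.0590) or control replicate 2 (0.0511), and Hdac2 without KO replicate 2 (0.0802), control replicate 1 (0.236) or control replicate 3 (0.0545). Hdac8 missed it without KO replicate 2 (0.0916), KO replicate 3 (0.0842), control replicate 1 (0.142) or control replicate 2 (0.0895).

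Sirtuins, the NAD-dependent deacylases, fell in 3 cases, rose in 1 and did not pass in 3. Among all tested genes 27.5% fell and 27.1% rose. Sirt5, a mainly mitochondrial enzyme that removes succinyl and malonyl groups, had 8.72, 7.51 and 7.36 CPM in KO libraries, against 12.3, 11.8 and 13.0 CPM in control libraries. The groups were apart despite the low level (log2 fold change -0.65 ± 0.12, SE, n = 3 each, edgeR adjusted p = 1.59e-05). Sirt6, an H3K9 deacetylase tied to glycolytic genes and DNA repair, averaged 32.0 ± 2.42 CPM in KO and 39.0 ± 1.47 CPM in control libraries (-0.28, SD, n = 3 each, edgeR adjusted p = 0.000612), and Sirt2, a tubulin deacetylase, fell (-0.23). Sirt7, the nucleolar sirtuin, rose (0.23). The Sirt2 call missed the threshold without control replicate 2 (adjusted p = 0.0568), and the Sirt7 call without KO replicate 3 (0.0759) or control replicate 2 (0.0628). Sirt1, the founding mammalian member and the one with the highest CPM, had 44.4, 41.4 and 38.0 CPM in KO libraries, against 42.8, 43.5 and 42.3 CPM in control libraries, and it overlapped (-0.06, adjusted p = 0.459). Mitochondrial Sirt3 (-0.18) and Sirt4 (-0.10) were at 4.80 to 7.90 CPM and did not pass.

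Dnmt1, which copies DNA methylation at replication, had the highest CPM of all the enzymes, with 427, 400 and 394 CPM in KO libraries, against 349, 351 and 356 CPM in control libraries. Every KO library was above every control library (log2 fold change 0.21 ± 0.04, SE, n = 3 each, edgeR adjusted p = 5.24e-06). The de novo enzyme Dnmt3a also rose (0.23, adjusted p = 0.00311). Dnmt3b measured 4.97, 3.06 and 5.28 CPM in KO libraries, against 3.16, 3.15 and 4.13 CPM in control libraries, with a wide interval (0.36, from -0.05 to 0.78), and it passed without KO replicate 2 (0.57, adjusted p = 0.0175). Of the Tet enzymes 1 rose, 1 fell and 1 did not pass, where 27.1% of all tested genes rose and 27.5% fell. Tet3 had 74.8, 75.6 and 76.0 CPM in KO libraries, against 60.9, 61.9 and 64.5 CPM in control libraries, with groups apart (0.27, adjusted p = 1.6e-05). Tet2, often mutated in blood cancers, averaged 22.5 ± 2.92 CPM in KO and 28.3 ± 2.13 CPM in control libraries (-0.33, SD, n = 3 each, edgeR adjusted p = 0.00146), while Tet1 stayed at 3.06 to 4.81 CPM and did not pass.

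The 8 enzymes and antisense transcripts below the filter had little or no signal. Kdm5d on the Y chromosome, Hdac9, Dnmt3c and Dnmt3aos had 0 counts in all libraries, which allows up to 3 counts, or 0.148 to 0.160 CPM in a KO library and 0.148 to 0.194 CPM in a control library, for counting error only. Dnmt3l had 0.0511 and 0.0494 CPM in KO replicates 2 and 3 and 0 in the other libraries. Kdm4d had 0.214 to 0.358 CPM in KO libraries and 0.164 to 0.516 CPM in control libraries. Dnmt3bos had at most 0.198 CPM in KO and 0.345 CPM in control libraries, and Kdm6bos at most 0.0988 CPM in KO and 0.129 CPM in control libraries.

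Levels of different enzymes were set side by side per kilobase of annotated exon (CPM per kb, on the GENCODE M21 exon union). On that scale Dnmt1 stood at 55.2 ± 2.41 and Ehmt2 at 52.4 ± 1.12 CPM per kb in KO libraries, against 47.7 ± 0.51 for Dnmt1 and 62.7 ± 2.01 for Ehmt2 in control libraries (SD, n = 3 each). Ehmt2 was thus the higher in each control library and Dnmt1 the higher in each KO library, but with the longest transcript as length Ehmt2 was the higher in each control library and in KO replicates 2 and 3, and Dnmt1 in KO replicate 1 (72.8 against 72.5 CPM per kb). Suz12, Hdac1 and Hdac2 came next in control libraries, with 36.6, 31.7 and 31.5 CPM per kb, and the order of Hdac1 and Hdac2 was within their SD (0.82 and 2.01). That order also rests on the exon union: with the longest transcript the next in control libraries were Hdac1 (53.6), Kdm1a (47.2), Hdac2 (43.3) and Suz12 (41.4).

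Some related enzymes differed in the direction or size of their change. Their shares of a family's summed level per kb were compared as a description, with no test. A share can also shift when a single paralog changes, as for Ezh1 and Crebbp, whose paralogs Ezh2 and Ep300 did not pass. Hdac10 made up 31.3%, 28.7% and 29.2% of the class IIb level in KO libraries, against 18.2%, 17.5% and 16.2% in control libraries. Kmt5a made up 59.7 ± 1.76% of the Kmt5 level in KO and 49.6 ± 0.93% in control libraries, and Kmt5c 16.2 ± 1.24% in KO and 24.2 ± 1.28% in control libraries (SD, n = 3 each). Each of these shares was apart between groups. Ezh1 gave 17.1 ± 0.96% of the summed Ezh1 and Ezh2 level in KO and 24.1 ± 0.23% in control libraries. Tet3 gave 74.2 ± 1.86% of the Tet level in KO and 65.9 ± 1.81% in control libraries, and Crebbp 45.5 ± 1.28% of the Ep300 and Crebbp level in KO and 40.2 ± 1.47% in control libraries. In contrast, Dnmt1 held 94.6 ± 0.47% of the DNA methyltransferase level in KO and 94.8 ± 0.16% in control libraries, with overlap. The families named here are a selection of those computed. In the Kdm3, Kdm5, Kdm6, class IIa HDAC and Kat2 families every share overlapped between groups. The change of the Kmt5c and Ezh1 shares was smaller when the longest transcript was used as length, at -6.11 and -5.73 percentage points, against -7.97 and -6.95 with the exon union.

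**Figure D4:**
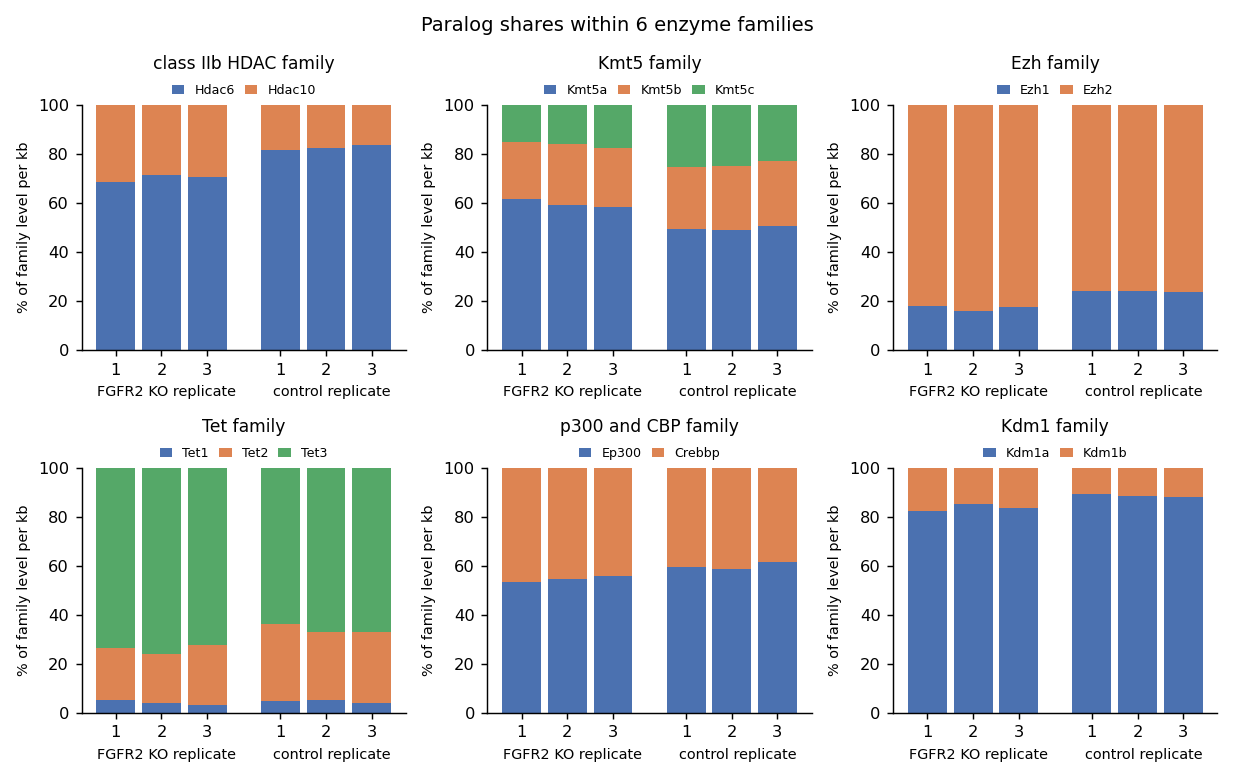
Share of each paralog in its family's summed level per kb (vertical, percent) in each library, KO replicates left and control replicates right, for 6 families. These are a selection, and in some families not shown every share overlapped between groups. The Hdac10, Kmt5a, Ezh2, Tet3, Crebbp and Kdm1b shares are higher in all 3 KO libraries than in all 3 control libraries.

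Partners of these enzymes were counted from lists written from textbook knowledge, with earlier results of these data known. The counts stand beside the 27.1% of all tested genes that rose and the 27.5% that fell, and no list was tested as a group. Of 18 subunits of PRC1, the other Polycomb complex, 10 fell and 1 rose, with a median log2 fold change of -0.15. Cbx7, a reader of H3K27 methylation, had 12.9, 12.3 and 12 CPM in KO libraries, against 20.7, 22.8 and 22.3 CPM in control libraries (-0.83), while Bmi1 was the one that rose (0.30). Of 8 tested PRC2 accessory subunits Phf1 fell (-0.64) and Phf19 rose (0.19), and 6 did not pass. Phf1 guides PRC2 to chromatin and had 43.6, 47.6 and 43.2 CPM in KO libraries, against 70.1, 68.1 and 72.0 CPM in control libraries, with no overlap. The Phf19 call was lost in the fits without KO replicate 3 or control replicate 3, where 1 subunit passed.

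Of 12 subunits that work with the H3K4 methyltransferases (COMPASS and related complexes), 7 rose and 1 fell, with a median of 0.14, and Paxip1 (0.38) and Hcfc1 (0.26) had the smallest adjusted p. The genes named for the lists that follow were likewise those with the smallest adjusted p, not the largest changes. Of 15 other lysine methyltransferases 6 rose and 2 fell, among them Setd7 (0.28) and Smyd3 (-0.51), and of 8 arginine methyltransferases 3 rose and 1 fell, among them Prmt1 (0.19) and Prmt2 (-0.30). Of 20 subunits of HDAC complexes 5 rose and 9 fell, among them Rcor3 (-0.59) and Mta1 (-0.30), both corepressor subunits. Of 25 subunits of acetyltransferase complexes 9 rose and 5 fell, among them Kansl2 (0.31) and the cytoplasmic histone acetyltransferase Hat1 (0.29), and without control replicate 2 the count was 8. Of 13 partners of DNA methylation and demethylation 5 rose and 4 fell. There Gadd45b, an early response gene tied to demethylation, had 58.9, 49.4 and 57.3 CPM in KO libraries, against 24.4, 24.0 and 24.3 CPM in control libraries (1.19), whereas Gadd45a fell (-0.56).

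Lists of cell state genes, also written with earlier results of these data known, were counted in the same way. In the S phase list, 20 of 24 genes rose, none of the other 4 passed edgeR's quasi-likelihood test, and the median log2 fold change was 0.23; Mcm5 (0.44) and Rrm2 (0.49) had the smallest adjusted p. Of 20 hypoxia genes 18 fell and 2 rose (median -0.94), and Car9 (-2.32) and Aldoa (-1.23) had the smallest adjusted p. Car9 had 24.8, 28.9 and 26.8 CPM in KO libraries, against 132, 137 and 132 CPM in control libraries. The hypoxia median was larger in size than any enzyme's log2 fold change, of which the largest was -0.70. The part of S phase and of hypoxia genes in the enzyme results was not tested.

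**Figure D5:**
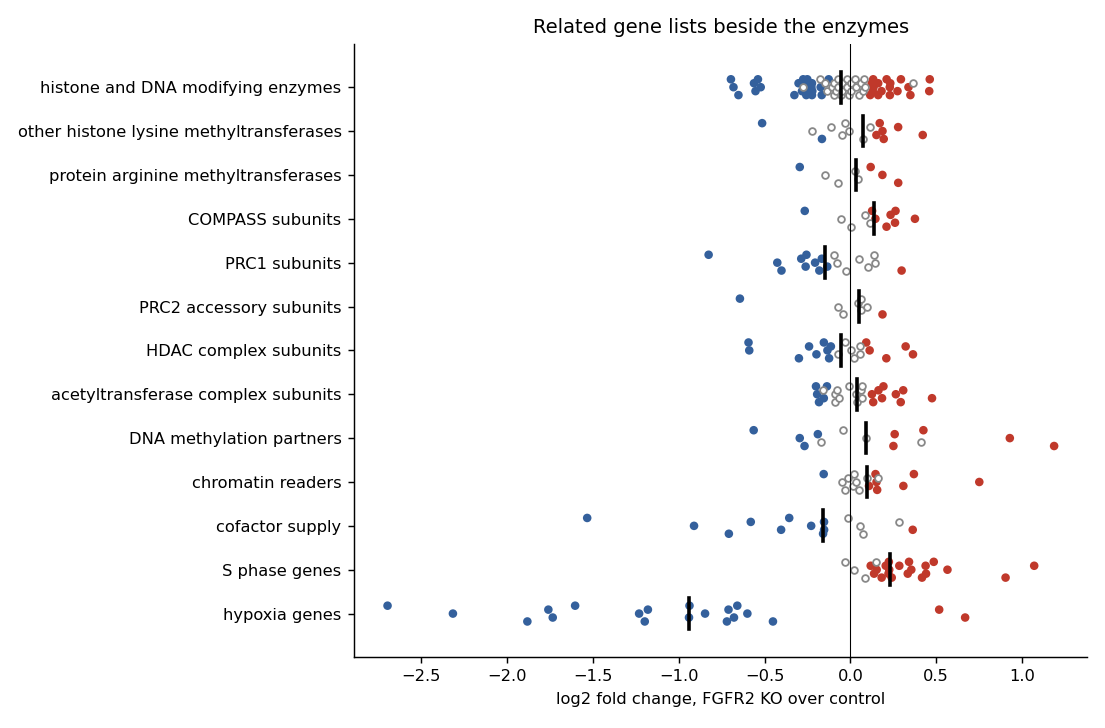
Log2 fold change of FGFR2 KO over control for each tested gene of the enzymes and of 12 related lists, red where it rose, blue where it fell and open where it did not pass, with the median as a black bar. The enzymes centre on -0.05, the PRC1 subunits on -0.15, the S phase genes on 0.23 and the hypoxia genes on -0.94.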

How the data were processed

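The authors deposited raw gene counts for the 6 libraries in a single table. FastQC 0.11.9, STAR 2.7.9a, R 4.1.1 and featureCounts (no version stated) are named per the submitters' processing notes, as are the builds hg38 and mm10, with no role given. Library preparation was stranded, per the labels' protocols. The sources used here do not state the annotation release, the strand setting of the counting or the handling of multimapping reads, so exons that overlap another gene are uncertain. All 74 rows were found in GENCODE M21 (mm10), where 27 overlap a gene on the opposite strand and 5 on the same strand. Besides those given above, overlaps on the opposite strand included 6.82% of the exon bases of Eed (E230029C05Rik), 6.28% of Kmt5b (Gm16066) and 5.77% of Kdm2b (Rnf34).

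Here low genes were removed with filterByExpr (minimum count 10, total 15), libraries were scaled by TMM, and the 3 KO and 3 control libraries were compared with edgeR 4.0.16 (R 4.3.3), by the quasi-likelihood test with group as the only term. P-values were adjusted by Benjamini-Hochberg over 12158 genes. CPM were computed from the deposited counts, log2 fold changes are KO over control, SE and 95% intervals come from the same fit. The smallest count of a tested enzyme in any library was 56. Chi-square per degree of freedom between libraries, over genes, was 3.98 to 5.09 among KO libraries, 2.32 to 2.76 among control libraries and 46.6 to 54.6 between groups, so no library was a copy of another.

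Values per library are given for enzymes that changed with an absolute log2 fold change of at least 0.4 and a mean of at least 5 CPM and for the enzyme of each role with the highest CPM; of each list of partners, the 2 genes with the smallest adjusted p are named. Per-library values of Fgfr2, Kmt2c and Dnmt3b were added after they were seen. The members and lists were chosen with earlier results of these data known. Alternatives tried were RLE and upper quartile scaling, DESeq2 1.42.0, limma-voom (limma 3.58.1), other filters, a minimum fold change, a replicate block and leaving out each library.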

Additional observations from a re-analysis of the deposited data

How the results depend on the processing

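The count of changed enzymes (40) was 37 to 40 under RLE or upper quartile scaling, DESeq2, limma-voom, no filter on low counts and a filter at a mean of 5 CPM, and 31 to 39 when 1 library was left out, lowest without control replicate 2. The count of changed genes (6639) was 5831 to 6694 under the same settings and 5922 to 6276 with 1 library left out. Against a minimum fold change of 1.5, 907 genes and 0 enzymes passed. Of the 40 calls, 29 held in all 6 fits that left out 1 library and 11 were lost in at least 1, as given beside each; 5 other enzymes passed in at least 1 such fit. Kmt2b, Setd2, Hdac2 (upper quartile scaling), Kmt2b, Kdm6a, Hdac8 (DESeq2) and Kdm6a (no filter) were lost in other fits, and Kdm6b passed under upper quartile scaling. No enzyme that changed reversed direction in any fit. Same-numbered libraries did not deviate together (correlations -0.03, -0.003 and -0.06), so no pairing by number was seen. With so few libraries per group this could not show whether they were set up in parallel. With the replicate block 6443 genes and 39 enzymes changed, and Kdm6a was lost (adjusted p = 0.0511). Scaling moved the median log2 fold change by at most 0.02. Depth limits the enzymes with the lowest CPM most: the SE was 0.20 for Dnmt3b and Tet1, 0.17 for Kdm8 and 0.16 for Sirt4.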

Other observations

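Of 15 tested genes that supply the cofactors of these enzymes, 10 fell and 1 rose (27.5% and 27.1% of all tested genes), with a median log2 fold change of -0.16. Nmnat2, which makes NAD, the cosubstrate of sirtuins, had 13.6, 14.8 and 16.2 CPM in KO libraries, against 41.5, 40.9 and 47.3 CPM in control libraries (-1.53, edgeR's quasi-likelihood test, adjusted p = 1.09e-18). Idh1, a cytosolic source of the 2-oxoglutarate that Kdm and Tet dioxygenases use, had 127, 131 and 131 CPM in KO libraries, against 211, 213 and 211 CPM in control libraries (-0.71). Neither gene's groups came near each other.

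Of 17 tested readers of acetylated or methylated histones 7 rose and 1 fell, with a median of 0.10; without KO replicate 1, 4 rose and 1 fell. L3mbtl2, a reader of methylated lysine in a variant PRC1, had 32.1, 28.8 and 31.5 CPM in KO libraries, against 18.7, 16.5 and 19.9 CPM in control libraries (0.75), and Mllt3, which binds acetylated and crotonylated lysine, also rose (0.37).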
